A study of Mus musculus with 14 samples.

Results

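The shC tumours were grown from 4T1, a mouse line of triple-negative breast cancer, and were set against the same shC cells kept in culture, to describe what a control tumour gains and loses relative to the line that seeded it. The samples were chosen by their labels: 4 shC tumours and 3 shC cell cultures, 7 of the 14 libraries of the series. All carried a lentivirus with a doxycycline-inducible scrambled hairpin (shC), as a selected cell pool and not a clone; the host genotype was labelled WT. Tumours grew in fat pads of the mammary gland in BALB/c females fed doxycycline chow. Cultures received doxycycline in the medium, as did, per the paper, the tumour-forming cells before injection. The labels of both tumours and cultures give no treatment. The other 7 libraries were 4 tumours and 3 cultures of shTAZ cells, whose hairpin targets Wwtr1, the gene of the transcriptional coactivator TAZ. Nothing in the labels says whether replicate libraries came from separate animals or cultures, so p-values measure the spread between these libraries.

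A 4T1 tumour in a BALB/c mouse grows in a host with an intact immune system, so RNA of the whole tumour mixes cancer cells with macrophages, fibroblasts, vessels and other host cells. In bulk RNA, more cells of a type and more RNA per cell cannot be told apart. Solid tumours often hold regions of low oxygen, whereas cells in culture divide in rich medium. Expression was read as 3′ counts by a bulk form of MARS-seq, and levels are given as CPM, counts scaled to library size after TMM scaling (a correction for differences in RNA composition).

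The shC tumours had 22364483, 2968827, 2282612 and 2822712 counts, against 6820673, 10494087 and 14815813 in the shC cells. Tumours and cultures came in separate tables, so growth condition cannot be told apart from table, annotation or sequencing run. For tumours 13414 genes were listed and for cultures 11793, of which 11154 were in both, 470 of them matched through an older symbol; 2260 were listed for tumours only and 639 for cells only, and these were not tested. With all 14 libraries scaled together, which shifts CPM slightly from the 7-library scaling used below, Wwtr1 lay between 13.3 and 25.6 CPM in the tumours of shTAZ cells, against 27.3 to 59.6 CPM in those of shC cells, and between 6.17 and 10.7 CPM in shTAZ cultures, against 26.5 to 41.5 CPM in shC cultures, so both shTAZ groups were below their shC counterparts. shC cells 3 stood apart from the other cultures: chi-square per degree of freedom over genes was 108 and 114 between it and cultures 1 and 2, against 20.1 between those 2. shC tumour 1 stood apart among the tumours, with 39.3 to 75.2 against each of the others and 12.2 to 18.4 among the others. This measure grows with depth, and both libraries were the deepest of their group. Correlations of log2 CPM were 0.907 to 0.932 between shC tumour 1 and the others, against 0.946 to 0.9485 among the others. For shC cells 3 they were 0.928 and 0.9405, against 0.966 between cultures 1 and 2.

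Of 10134 genes tested, 1776 were higher in shC tumours (17.5%) and 1501 were lower (14.8%), 32.3% in all, by edgeR's quasi-likelihood test at an adjusted p under 0.05. The median log2 fold change over all genes, tumours over cells, was -0.02. CPM ranges of both groups were apart for 41.5% of the genes. With scaling to the simple epithelial genes instead, the median of all genes moved by 0.22, and 70.8% of the called genes were higher in tumours, against 54.2% with TMM, so that modest decreases below depend on the scaling. Counts given for gene lists are to be read against 17.5% and 14.8%, and changes given as a value ± SE are log2 fold changes, tumours over cells.

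Host myeloid genes were at high levels in tumours and close to 0 in cells. C1qa, a subunit of complement C1q made by macrophages, had 1662, 3282, 3276 and 2042 CPM in the shC tumours, against 5.66, 3.37 and 3.22 CPM in the shC cells (log2 fold change 9.32 ± 0.44 SE, adjusted p = 5.20e-07, edgeR). Lyz2, the macrophage lysozyme, had 1252, 2682, 1843 and 738 CPM in the shC tumours, against 3.82, 2.79 and 3.43 CPM in the shC cells (8.93 ± 0.55 SE, adjusted p = 1.97e-06, edgeR). Every tumour was above every culture for both genes. Csf1r, the receptor that macrophages need for survival, had 367, 578, 692 and 366 CPM in the shC tumours, against 2.29, 1.64 and 0.787 CPM in the shC cells (8.38 ± 0.48 SE, adjusted p = 1.20e-06, edgeR). Apoe, a lipid carrier of macrophages, had 4658, 7769, 6658 and 4766 CPM in the shC tumours, against 30.6, 19.4 and 23.2 CPM in the shC cells (7.94 ± 0.34 SE, adjusted p = 4.30e-07, edgeR), the largest rise in mean CPM among the called genes.

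All 12 tested macrophage genes were higher in tumours, with a median log2 fold change of 8.65 (range 3.39 to 9.41). C1qb and C1qc, the other C1q subunits, changed by 9.38 and 9.32. A further 10 macrophage genes were listed for tumours only and have no fold, among them Fcgr3, an Fc receptor, at a mean of 197 CPM, and Trem2, a lipid receptor, at 102 CPM. Over the 12 macrophage genes in both tables, shares of counts were 1.147%, 1.845%, 1.787% and 1.032% in the shC tumours. Those in the shC cells were 0.007145%, 0.005905% and 0.005083% (p = 0.0571 in an exact two-sided permutation test, which cannot go lower with 4 against 3).

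Of 6 tested pan-leukocyte genes 5 were higher and the other was not called. Laptm5, a lysosomal protein of blood cells, had 646, 709, 957 and 582 CPM in the shC tumours, against 1.99, 0.866 and 1.503 CPM in the shC cells (8.98 ± 0.39 SE, adjusted p = 4.30e-07, edgeR). Coro1a, an actin regulator of leukocytes, had 392.4, 535, 707 and 499.9 CPM in the shC tumours, against 3.06, 5.58 and 1.79 CPM in the shC cells (7.26 ± 0.46 SE, adjusted p = 2.23e-06, edgeR). Cd52, a surface antigen of lymphocytes and myeloid cells, had 275, 355, 490.4 and 289 CPM in the shC tumours, against 1.07, 0.0963 and 0.215 CPM in the shC cells (9.81 ± 0.60 SE, adjusted p = 1.99e-06, edgeR). Every tumour was above every culture in these genes. Ptprc, the CD45 gene, was listed for tumours only at a mean of 45.5 CPM.

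Lymphocyte and granulocyte genes took small shares of the counts, and most of those genes were listed for tumours only, so shares are given over the few genes in both tables, 2 for T cells, 1 for NK cells and 2 for neutrophils. The T cell list then took 0.00122% ± 0.00027 of counts in tumours and 0.000577% ± 0.000178 in cells (SD, n = 4 and 3), with every tumour above every culture (exact permutation p = 0.0571, two-sided). The cultures hold 35, 46 and 115 counts of its 2 genes, Cd5 and Lck, so this share is not specific to T cells. Only Lck was tested, and it was not called (log2 fold change 0.903). With its 10 genes listed for tumours only the tumour share was 0.00541% ± 0.00092; Cd8b1, a chain of the CD8 co-receptor, was the highest of these at a mean of 10.1 CPM. The NK and cytotoxic gene in both tables, Ccl5, had 0.00508% ± 0.00156 in tumours and 0.00529% ± 0.00196 in cells (exact permutation p = 0.857, two-sided). With 7 genes listed for tumours only the tumour share was 0.00795% ± 0.00224. Such genes were not listed for cells, which is not the same as having no counts there. In each list their addition can only raise the tumour share and gives no comparison with cells. Neutrophil genes had 0.0140% ± 0.0058 in tumours and 0.00801% ± 0.00177 in cells (exact permutation p = 0.171, two-sided), and the groups overlapped, with shC tumour 1 at 0.00799%. The log2 fold changes of these 2 genes were 0.549 and 4.47, and 1 of them was called higher. Leaving out single libraries kept 1 call. Adding 11 neutrophil genes listed for tumours only brought the tumour share to 0.0282% ± 0.0083. Over its 3 genes in both tables, Zbtb46, Batf3 and Fscn1, the dendritic cell list had 0.0863% ± 0.0089 in tumours and 0.104% ± 0.017 in cells. Its ranges overlapped (p = 0.171, exact permutation, two-sided), and none of these genes was called. The cultures hold counts of them too, so this share is not specific to dendritic cells. A further 4 dendritic cell genes were listed for tumours only, led by Itgax at a mean of 34.5 CPM.

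**Figure D1:**
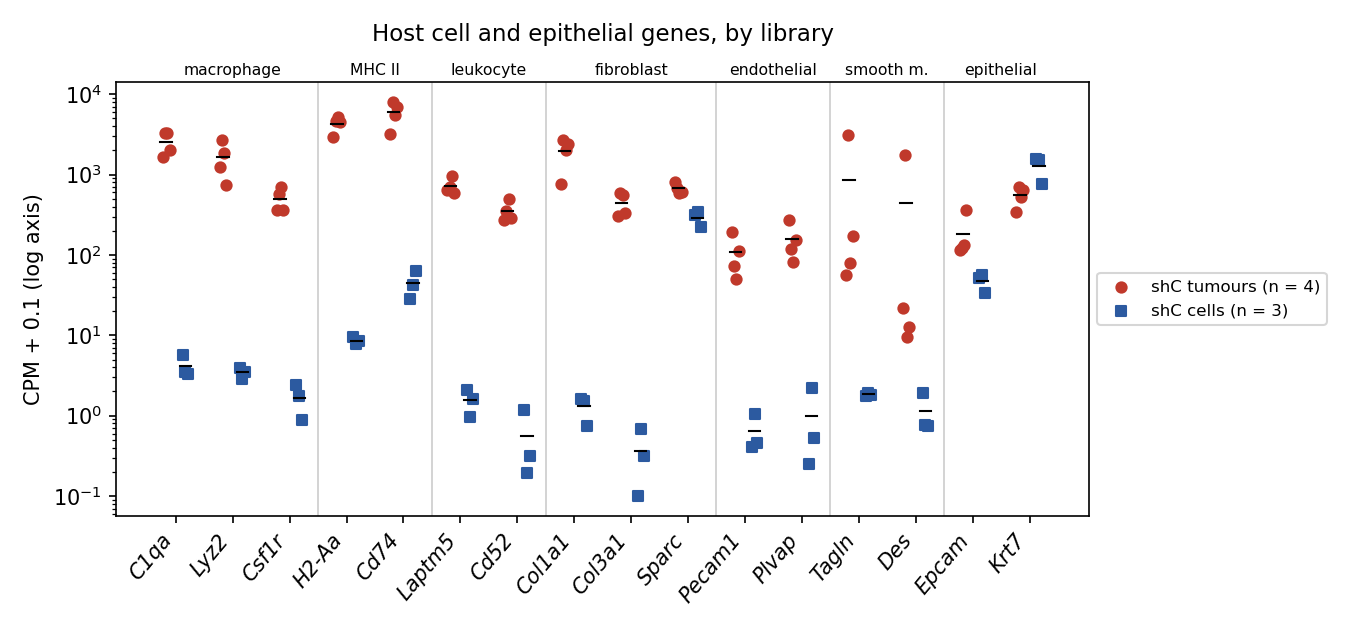
CPM plus 0.1 on a log axis for 16 genes, in 4 shC tumours (circles) and 3 shC cell cultures (squares), with a bar at each mean. Macrophage, MHC class II, leukocyte, fibroblast and endothelial genes sit far apart, except Sparc, which the cells expressed as well. Tagln and Des are far higher in a single tumour than in the others.

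Antigen presentation through MHC class II, used by macrophages and dendritic cells, was higher in all 8 tested genes (median 8.60, range 3.02 to 9.31). H2-Aa, a class II chain, had 2897, 4576, 5246 and 4448 CPM in the shC tumours, against 9.33, 7.70 and 8.52 CPM in the shC cells (8.98 ± 0.32 SE, adjusted p = 4.05e-07, edgeR). Cd74, the invariant chain that guides class II, had 3219, 8011, 5577 and 6862 CPM in the shC tumours, against 28.6, 42.6 and 63.3 CPM in the shC cells (7.04 ± 0.45 SE, adjusted p = 2.25e-06, edgeR). H2-Ab1 changed by 8.80 ± 0.40 (SE). The X box of class II promoters, searched as CC, any base, AG, 2 bases and ACAG, was in none of 6 members with a promoter and in 2.1% of all promoters.

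Of 14 tested fibroblast genes 13 were higher (median 7.72). Over genes in both tables, the list took 0.509% ± 0.122 of counts in tumours and 0.0319% ± 0.0071 in cells. Col1a1, a chain of collagen I, had 755, 2671, 2044 and 2372 CPM in the shC tumours, against 1.53, 1.44 and 0.644 CPM in the shC cells (10.71 ± 0.63 SE, adjusted p = 1.58e-06, edgeR). Col3a1, the collagen III gene, had 302, 588, 556 and 331 CPM in the shC tumours, against 0, 0.578 and 0.215 CPM in the shC cells (10.52 ± 0.61 SE, adjusted p = 1.32e-06, edgeR). Col1a2 changed by 9.08 ± 0.58 (SE). Their levels in cells rest on 34, 9 and 34 counts in all 3 cultures. Sparc, a collagen-binding matrix protein, was expressed by the cells too, with 816, 678, 595 and 607 CPM in the shC tumours, against 314, 339 and 222 CPM in the shC cells (1.21 ± 0.22 SE, adjusted p = 0.0023, edgeR). Igfbp3, a secreted IGF-binding protein, changed by 8.14 ± 0.68 (SE).

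Of 7 tested endothelial genes 6 were higher and 1 was lower (median 7.31). Pecam1, the CD31 adhesion molecule, had 194, 71.9, 50.2 and 113 CPM in the shC tumours, against 0.306, 0.963 and 0.358 CPM in the shC cells (7.58 ± 0.65 SE, adjusted p = 1.92e-05, edgeR). Plvap, a protein of fenestrated endothelium, changed by 7.37 ± 0.74 (SE). Eng, a TGF-beta co-receptor, was present in cells as well, with 524, 356, 332 and 419 CPM in the shC tumours, against 182, 165 and 189 CPM in the shC cells (1.19 ± 0.21 SE, adjusted p = 0.00226, edgeR). Flt1, a VEGF receptor, ran the other way with 4.58, 4.86, 12.8 and 5.76 CPM in the shC tumours, against 49.99, 31.5 and 37.6 CPM in the shC cells (-2.56 ± 0.39 SE, adjusted p = 9.03e-04, edgeR). A further 9 endothelial genes were listed for tumours only, led by Cldn5, a tight-junction protein, at a mean of 95.4 CPM.

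Smooth muscle genes were far higher in 1 tumour than in the others, which also lay above the cultures in the share of the list. Tagln, an actin-binding protein of smooth muscle, had 56.9, 3127, 78.7 and 171 CPM in the shC tumours, against 1.68, 1.83 and 1.72 CPM in the shC cells (8.93 ± 1.75 SE, adjusted p = 0.00353, edgeR). Des, the muscle filament protein, had 21.6, 1745, 9.36 and 12.6 CPM in the shC tumours, against 1.83, 0.674 and 0.644 CPM in the shC cells (8.84 ± 2.28 SE, adjusted p = 0.0144, edgeR). Myh11, the smooth muscle myosin, had 6.06, 958, 2.13 and 5.40 CPM in the shC tumours, against 0.917, 0.385 and 0.429 CPM in the shC cells (8.79 ± 2.46 SE, adjusted p = 0.0207, edgeR). shC tumour 2 was far above the other tumours in these genes. Over its 7 genes in both tables, shares of the list were 0.0169%, 0.741%, 0.0133% and 0.0283% in the tumours, against 0.00128%, 0.000688% and 0.000494% in the cells. A further 4 genes were listed for tumours only, led by Pdgfrb at 68.4, 123, 60.8 and 122 CPM, which no single tumour set. All 7 tested members were called higher (median 7.77), but without shC tumour 2 only 5 were, and Cnn1, a smooth muscle calponin, had a log2 fold change of 1.64 (adjusted p = 0.19, edgeR). Without any single culture 2 or 3 were called. Des was not called without shC cells 2 or 3 (adjusted p = 0.0586 and 0.0563, edgeR), and Myh11 and Cnn1 without any single culture (0.0576 to 0.0758 and 0.0744 to 0.11). In the same tumour, urothelial genes took 0.0642% of counts, against at most 0.000577% in the other tumours, and adipocyte genes 0.0582%, against at most 0.00932%. Over genes in both tables the urothelial share of shC tumour 2 was 0.0359% and no adipocyte gene was left; the part of adjoining tissue in other results was not tested.

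Complement and lysosomal genes were higher as well; host cells and cancer cells can both make them, and which did was not tested. Complement C3 had 289, 540.1, 107 and 184 CPM in the shC tumours, against 26.4, 26.4 and 28.9 CPM in the shC cells (3.36 ± 0.50 SE, adjusted p = 7.22e-04, edgeR), complement factor Cfb changed by 8.56 ± 0.58 (SE), and Serping1, the C1 inhibitor, by 7.73 ± 0.66 (SE). All 7 tested complement genes were higher (median 4.99). Of 19 tested lysosomal genes 13 were higher and none lower (median 1.42), with cathepsin gene Ctsd at 1583, 1583, 1785 and 947 CPM in the shC tumours, against 519.8, 393 and 466 CPM in the shC cells (1.68 ± 0.24 SE, adjusted p = 6.54e-04, edgeR) and Psap, a sphingolipid activator precursor, at 2.69 ± 0.27 (SE). Matrix protease gene Mmp14 changed by 2.21 ± 0.38 (SE) and Mmp2 by 7.20 ± 0.43 (SE), with 5 of 11 protease genes higher.

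Fibronectin (Fn1), a matrix protein that 4T1 cells also express, had 7179, 3424, 4034 and 4567 CPM in the shC tumours, against 867, 690.1 and 1175 CPM in the shC cells (2.398 ± 0.30 SE, adjusted p = 2.40e-04, edgeR). Secreted factors were divided: Spp1 (osteopontin) had 689, 2259, 3239 and 905 CPM in the shC tumours, against 238, 261 and 131 CPM in the shC cells (3.08 ± 0.55 SE, adjusted p = 0.00203, edgeR). Cxcl14 changed by 9.11 ± 0.39 (SE) and Ccl6 by 9.37 ± 0.98 (SE). Csf1, the macrophage growth factor, was lower, with 191, 247, 366 and 138 CPM in the shC tumours, against 327, 388 and 911 CPM in the shC cells (-1.20 ± 0.40 SE, adjusted p = 0.0412, edgeR), and it was not called without shC cells 3 (-0.61, adjusted p = 0.207, edgeR) or without shC tumours 1, 2 or 4 (0.0771 to 0.1). Of 17 tested cytokine genes 6 were higher and 2 lower.

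**Figure D2:**
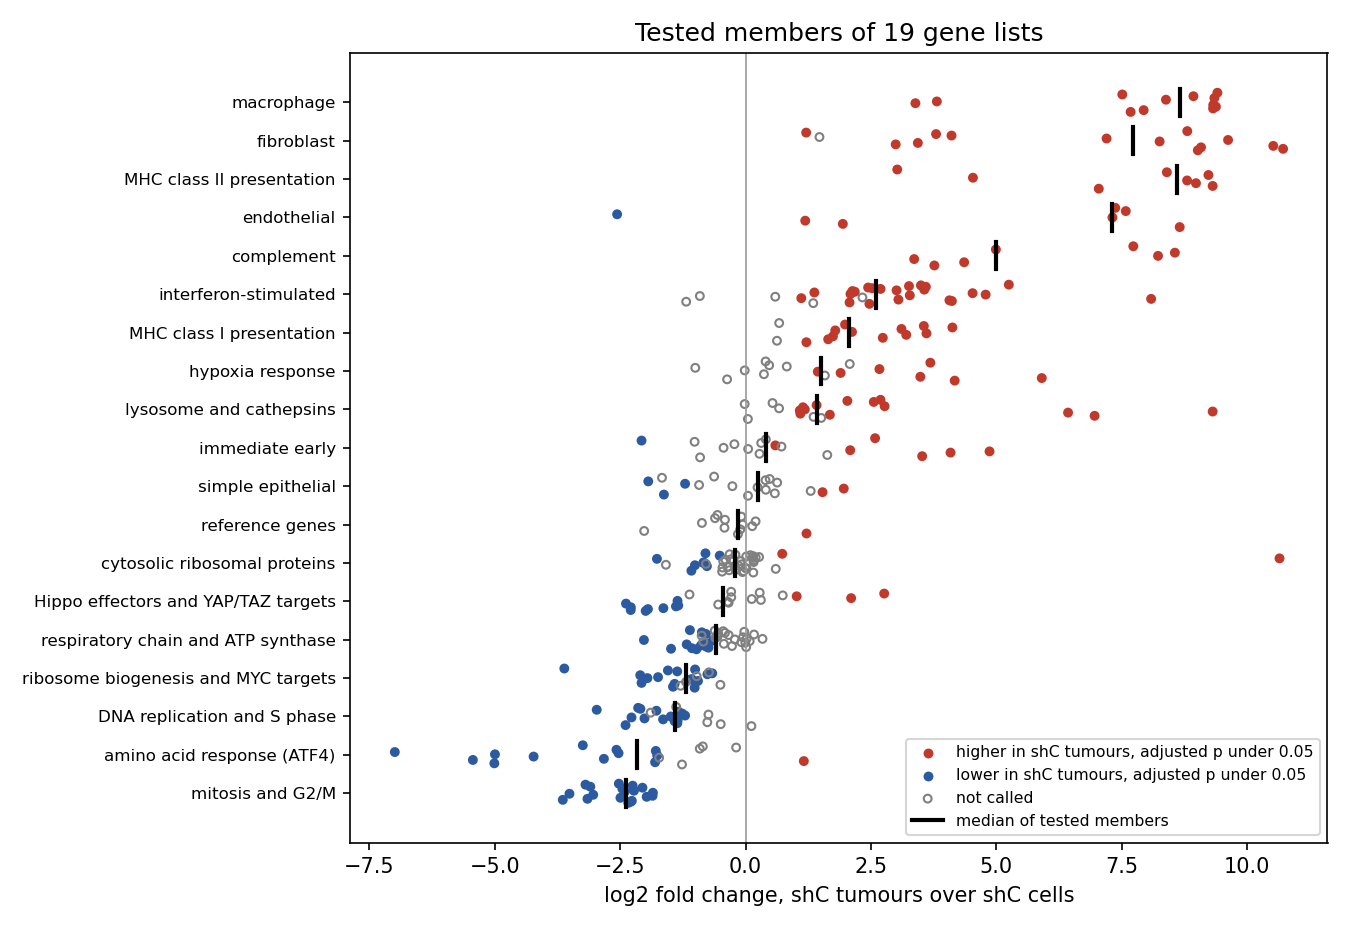
Log2 fold change, shC tumours over shC cells, for every tested member of 19 gene lists, with filled points called at an adjusted p under 0.05 (edgeR) and a bar at each median. Host lists lie far to the right, interferon and MHC class I genes to the right, and cell cycle and amino acid response genes to the left.

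Interferon-stimulated genes, the antiviral set that interferons switch on through the ISRE element, were higher in 23 of 28 tested members and lower in none (median 2.61). Irf7, a transcription factor of that response, had 157, 138, 184 and 376 CPM in the shC tumours, against 7.64, 8.86 and 11.1 CPM in the shC cells (4.53 ± 0.41 SE, adjusted p = 2.87e-05, edgeR). Isg15, a ubiquitin-like modifier, had 188, 229.9, 249.7 and 451 CPM in the shC tumours, against 59.0, 57.9 and 74.4 CPM in the shC cells (2.13 ± 0.32 SE, adjusted p = 7.12e-04, edgeR). Bst2 (tetherin) had 613, 678, 472 and 746 CPM in the shC tumours, against 80.4, 92.2 and 167 CPM in the shC cells (2.47 ± 0.30 SE, adjusted p = 2.08e-04, edgeR). Irf1 changed by 2.09 ± 0.27 (SE). Every tumour was above every culture in these genes. Leaving out single libraries gave 21 to 24 higher. Host cells express these genes too, and which cells carried the change was not tested.

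Igtp and Gbp2, interferon-inducible GTPases that rose, are shown with their promoters because they had the largest folds among called members holding the ISRE; they were chosen after their values were seen. Igtp changed by 4.79 ± 0.37 (SE) and Gbp2 by 4.11 ± 0.65 (SE). Promoters are the RefSeq windows of GRCm38.p6, 300 bases on the gene's strand, with the match to the interferon-stimulated response element (ISRE) in capitals, searched on either strand as GAAA, 2 bases and GAAA. That motif was in 14 of 22 members with a promoter in the table, and in 3.44% of all 32851 promoters; a match is not a site. Igtp spans chr11:58199306-58199605 (+) and Gbp2 chr3:142620413-142620712 (+).

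Igtp: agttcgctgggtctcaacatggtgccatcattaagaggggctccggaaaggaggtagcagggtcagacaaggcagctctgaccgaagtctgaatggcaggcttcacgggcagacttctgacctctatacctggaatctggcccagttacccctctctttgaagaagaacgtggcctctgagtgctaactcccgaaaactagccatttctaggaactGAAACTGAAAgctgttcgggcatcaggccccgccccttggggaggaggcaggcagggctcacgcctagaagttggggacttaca

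Gbp2: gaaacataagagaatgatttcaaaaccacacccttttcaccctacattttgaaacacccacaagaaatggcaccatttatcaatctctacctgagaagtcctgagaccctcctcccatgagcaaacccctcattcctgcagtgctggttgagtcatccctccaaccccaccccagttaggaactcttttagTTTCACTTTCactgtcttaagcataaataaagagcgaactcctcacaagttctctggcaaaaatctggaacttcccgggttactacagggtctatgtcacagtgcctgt

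MHC class I presentation, which shows peptides to CD8 T cells, was higher in 12 of 14 tested members and lower in none (median 2.05). H2-K1 had 949, 1273, 1257 and 1243 CPM in the shC tumours, against 146, 171 and 214 CPM in the shC cells (2.74 ± 0.22 SE, adjusted p = 1.28e-05, edgeR). H2-D1 had 4217, 6622, 6259 and 6896 CPM in the shC tumours, against 1809, 1550.4 and 2384 CPM in the shC cells (1.65 ± 0.23 SE, adjusted p = 5.23e-04, edgeR). Tumours and cultures did not overlap in either. The immunoproteasome subunit Psmb8 changed by 3.11 ± 0.24 (SE). B2m, the class I light chain, changed by 1.21 ± 0.32 (SE).

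Hypoxia genes, switched on by HIF when oxygen is low, were higher in 7 of 16 tested members and lower in none (median 1.51). Egln3, an oxygen-sensing prolyl hydroxylase, had 397, 179, 205 and 488 CPM in the shC tumours, against 50.3, 35.8 and 63.5 CPM in the shC cells (2.67 ± 0.40 SE, adjusted p = 7.30e-04, edgeR). P4ha2, a collagen prolyl hydroxylase, had 121, 54.9, 51.5 and 74.2 CPM in the shC tumours, against 7.19, 3.27 and 7.30 CPM in the shC cells (3.68 ± 0.43 SE, adjusted p = 1.49e-04, edgeR). Ddit4, an mTOR inhibitor, changed by 1.44 ± 0.37 (SE) and Car9, a carbonic anhydrase, by 1.90 ± 0.52 (SE). The mean log2(CPM + 1) of the members, centred on the 7 libraries, was 1.51, 0.24, 0.41 and 0.33 in the shC tumours, against -0.93, -0.61 and -0.96 in the shC cells, with shC tumour 1 far above the other tumours. Without shC tumour 1, 7 of 14 tested members were higher (median 0.88). The core ACGTG was in 10 of 12 members with a promoter and in 19.6% of all promoters. Glycolytic genes, many of them also HIF targets, gave 2 lower of 13.

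Amino acid response genes, which ATF4 switches on when amino acids run short or the endoplasmic reticulum is stressed, were lower in 12 of 18 tested members (median -2.17). They gave 4 of the 10 largest falls among genes detected in both. The 12 include Pycr1, with 0.297, 0, 0 and 0.360 CPM in the shC tumours, against 26.1, 34.2 and 34.1 CPM in the shC cells. For a gene so near 0 in every tumour, growth condition and annotation cannot be told apart. Chac1, which degrades glutathione, had 5.26, 19.4, 7.23 and 7.56 CPM in the shC tumours, against 369, 387 and 481 CPM in the shC cells (-5.43 ± 0.43 SE, adjusted p = 1.01e-05, edgeR). Asns, asparagine synthetase, had 10.6, 22.9, 20.8 and 18.4 CPM in the shC tumours, against 332, 506 and 877 CPM in the shC cells (-5.01 ± 0.39 SE, adjusted p = 1.01e-05, edgeR). Psat1, of serine synthesis, had 4.87, 13.9, 13.2 and 13.7 CPM in the shC tumours, against 224, 432 and 385 CPM in the shC cells (-4.99 ± 0.41 SE, adjusted p = 1.35e-05, edgeR). No tumour reached any culture in these genes. Mthfd2 and Shmt2, of mitochondrial folate metabolism, changed by -4.22 ± 0.26 (SE) and -2.57 ± 0.31 (SE). Trib3, an inhibitor in this response, changed by -3.24 ± 0.45 (SE), and Atf4 itself had 460.1, 267, 340.3 and 312 CPM in the shC tumours, against 1059, 1016 and 1538 CPM in the shC cells (-1.80 ± 0.24 SE, adjusted p = 3.54e-04, edgeR). A single member, Cebpb, was higher, with 741, 1222, 821 and 1100.3 CPM in the shC tumours, against 331, 329 and 642 CPM in the shC cells (1.16 ± 0.29 SE, adjusted p = 0.0131, edgeR), though not without shC cells 1 or 2 (adjusted p = 0.052 and 0.0614, edgeR).

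Chac1 and Asns had the largest falls among called members with the ATF4 element TGATGNAA, genes near 0 throughout one condition left aside. The element was in 5 of 16 members with a promoter and in 3.97% of all promoters, on either strand. Chac1 spans chr2:119350992-119351291 (+) and Asns chr6:7693160-7693459 (-); the match is in capitals.

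Chac1: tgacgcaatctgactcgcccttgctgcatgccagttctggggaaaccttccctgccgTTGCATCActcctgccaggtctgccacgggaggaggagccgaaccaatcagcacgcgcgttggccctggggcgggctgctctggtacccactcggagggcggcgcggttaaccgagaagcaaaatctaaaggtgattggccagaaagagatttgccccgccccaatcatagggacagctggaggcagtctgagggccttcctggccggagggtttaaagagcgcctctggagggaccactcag

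Asns: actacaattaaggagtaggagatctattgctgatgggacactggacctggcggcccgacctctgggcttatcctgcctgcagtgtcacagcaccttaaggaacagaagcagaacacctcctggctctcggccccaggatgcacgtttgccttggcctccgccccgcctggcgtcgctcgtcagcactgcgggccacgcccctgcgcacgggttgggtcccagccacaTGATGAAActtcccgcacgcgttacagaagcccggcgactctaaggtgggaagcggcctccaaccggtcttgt

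All 20 tested G2/M genes were lower (median -2.37). Ube2c, which supplies ubiquitin for mitotic exit, had 49.6, 225, 154 and 152 CPM in the shC tumours, against 819, 893 and 784 CPM in the shC cells (-2.52 ± 0.40 SE, adjusted p = 0.00103, edgeR). Top2a, the topoisomerase of dividing cells, had 21.3, 136, 129.7 and 91.5 CPM in the shC tumours, against 489.5, 581 and 268 CPM in the shC cells (-2.25 ± 0.52 SE, adjusted p = 0.00826, edgeR). Ccna2, cyclin A2, had 4.28, 4.17, 8.51 and 4.68 CPM in the shC tumours, against 53.2, 113 and 30.5 CPM in the shC cells (-3.64 ± 0.47 SE, adjusted p = 2.99e-04, edgeR). shC tumour 1 was lowest in Ube2c and Top2a. Ccnb2 (cyclin B2) and the kinase gene Plk1 changed by -2.49 ± 0.53 (SE) and -2.05 ± 0.48 (SE). Leaving out single libraries kept 16 to 20 lower calls.

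Of 21 tested S phase genes 15 were lower (median -1.41). Cdt1, which licenses origins, had 46.1, 91.7, 89.3 and 83.2 CPM in the shC tumours, against 445, 403 and 366 CPM in the shC cells (-2.39 ± 0.26 SE, adjusted p = 8.65e-05, edgeR). Mcm3, a helicase subunit, changed by -1.64 ± 0.35 (SE). Leaving out single libraries gave 9 to 18 lower calls, with the fewest, 9 and 10, without shC cells 2 or 1 and the most without shC cells 3. A list score, the mean log2(CPM + 1) of the members centred on the 7 libraries, was -1.44, -0.20, -0.22 and -0.57 in the shC tumours, against 1.14, 1.23 and 0.06 in the shC cells, so that shC cells 3 lay nearer to tumours 2 and 3 than to the other cultures. The share of cancer cells in each tumour was not measured, so these levels are of whole tumours.

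The CHR element TTTGAA was in 13 of 16 G2/M members with a promoter and in 17.9% of all promoters, against 2 of 19 S phase members. CCAAT was in 15 of 16 G2/M members, in 12 of 19 S phase members and in 37.4% of all promoters. The E2F motif TTTNGCGC was in 8 of 19 S phase members, in 0 of 16 G2/M members and in 1.38% of all promoters. Hmmr, a spindle protein, and Prc1, a spindle midzone protein, had the largest falls with a CHR (-3.51 ± 0.53 and -3.09 ± 0.43, SE), and Cdt1 with an E2F motif; capitals mark CHR or E2F. These promoters were picked for display after the values were seen. They span chr11:40733388-40733687 (-), chr7:80294201-80294500 (+) and chr8:122567765-122568064 (+).

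Hmmr: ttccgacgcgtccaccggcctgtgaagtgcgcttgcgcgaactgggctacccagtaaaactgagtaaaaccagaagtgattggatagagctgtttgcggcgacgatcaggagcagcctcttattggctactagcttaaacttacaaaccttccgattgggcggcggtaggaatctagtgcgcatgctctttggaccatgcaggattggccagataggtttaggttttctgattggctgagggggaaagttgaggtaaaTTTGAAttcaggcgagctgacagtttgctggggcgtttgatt

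Prc1: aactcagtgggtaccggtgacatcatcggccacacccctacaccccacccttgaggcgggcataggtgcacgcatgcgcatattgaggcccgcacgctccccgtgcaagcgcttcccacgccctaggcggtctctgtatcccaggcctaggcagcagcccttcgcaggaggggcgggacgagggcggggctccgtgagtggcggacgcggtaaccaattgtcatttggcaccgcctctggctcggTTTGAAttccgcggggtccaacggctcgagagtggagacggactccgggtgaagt

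Cdt1: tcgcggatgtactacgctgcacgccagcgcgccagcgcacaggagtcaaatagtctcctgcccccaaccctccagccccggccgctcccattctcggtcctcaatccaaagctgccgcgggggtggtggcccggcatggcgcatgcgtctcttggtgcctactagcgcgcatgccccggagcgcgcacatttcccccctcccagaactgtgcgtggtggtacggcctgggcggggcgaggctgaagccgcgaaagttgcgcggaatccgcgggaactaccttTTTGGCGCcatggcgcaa

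Of 21 tested ribosome biogenesis genes 16 were lower (median -1.19), but 7 with epithelial scaling and 10 without shC cells 3. Myc had 72.4, 113, 152 and 205 CPM in the shC tumours, against 264, 374 and 1066 CPM in the shC cells (-2.07 ± 0.48 SE, adjusted p = 0.00818, edgeR). The nucleolar gene Nop58 changed by -1.74 ± 0.35 (SE) and Cad, of pyrimidine synthesis, by -1.45 ± 0.20 (SE). Of 36 respiratory chain genes 14 were lower (median -0.58; 2 with epithelial scaling), such as Atp5b at -1.48 ± 0.17 (SE) and Cox4i1 at -0.80 ± 0.18 (SE). Among ribosomal protein genes 9 of 43 were lower and 2 higher, with Rplp1 at 6652, 10006, 8268 and 11695 CPM in the shC tumours, against 15703, 14845 and 18582 CPM in the shC cells (-0.84 ± 0.20 SE, adjusted p = 0.0107, edgeR) and Rpl4 at -1.01 ± 0.20 (SE). Of 13 tested fatty acid synthesis genes 2 were lower and none higher (median -0.20), among them Fads2, a fatty acid desaturase, at -5.19 ± 0.60 (SE). Of 15 tested antioxidant genes (median -0.22) only Gclm, of glutathione synthesis, was called, at -1.78 ± 0.26 (SE).

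**Figure D3:**
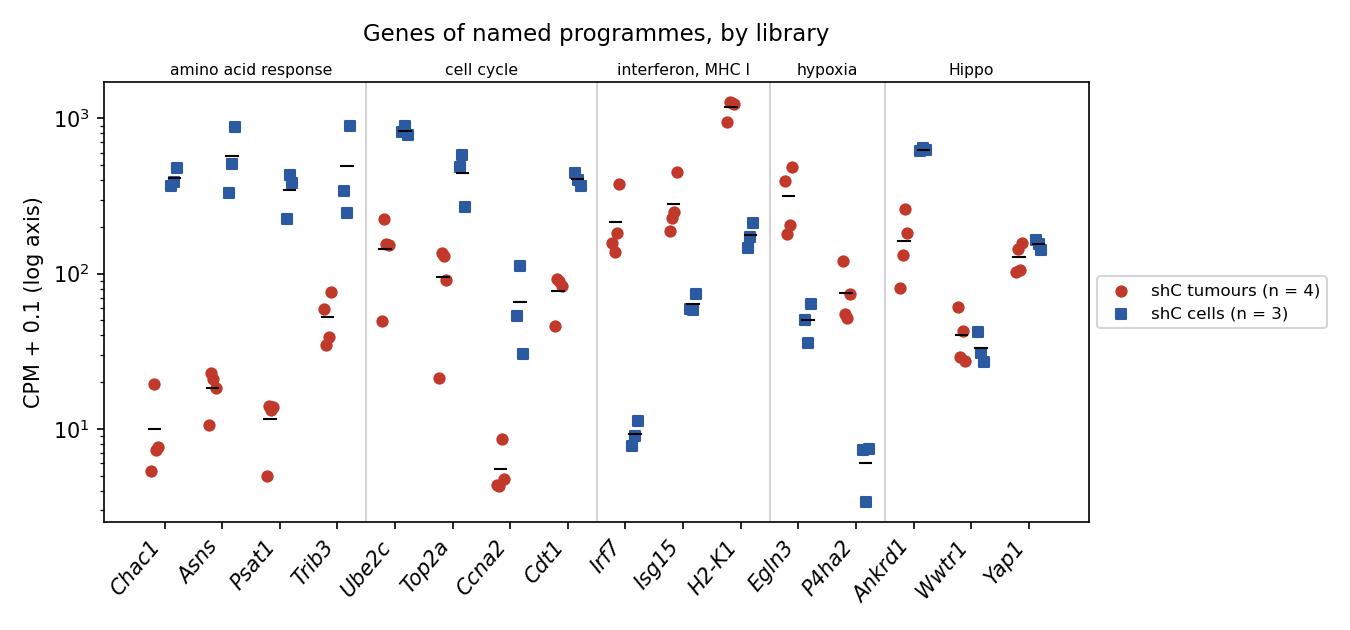
CPM plus 0.1 on a log axis for 16 programme genes in 4 shC tumours (circles) and 3 shC cell cultures (squares), with a bar at each mean. Amino acid response and cell cycle genes were lower in tumours, Irf7, Isg15, H2-K1, Egln3 and P4ha2 higher, and Wwtr1 and Yap1 overlapped.

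Immediate early genes, which respond within minutes to stimuli, were mixed: Fos had 128, 21.2, 12.3 and 50.1 CPM in the shC tumours, against 0.459, 2.12 and 2.65 CPM in the shC cells (4.86 ± 0.88 SE, adjusted p = 0.00225, edgeR). Zfp36, an mRNA decay factor, changed by 2.58 ± 0.46 (SE), and Junb by 0.60 ± 0.19 (SE), a call lost in every fit that left out a library except shC tumour 1 (adjusted p = 0.0548 to 0.13, edgeR). Of 17 tested 6 were higher and 1, Myc, lower. Of 10 tested p53 targets 3 were higher, including the cell cycle inhibitor Cdkn1a (1.20 ± 0.28, SE), and 1 was lower.

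Genes that identify the epithelial cancer cell remained detected in both groups. Simple epithelial genes took 0.556% ± 0.110 of counts in tumours and 0.578% ± 0.144 in cells (exact permutation p = 0.8, two-sided, n = 4 and 3). Epcam, an epithelial adhesion molecule, had 113, 123, 134 and 361 CPM in the shC tumours, against 51.7, 55.5 and 33.9 CPM in the shC cells (1.96 ± 0.43 SE, adjusted p = 0.0064, edgeR). Cldn4, a claudin, changed by 1.53 ± 0.49 (SE); shC tumour 4 was highest in both, and Cldn4 lost its call without any single culture (adjusted p = 0.0701 to 0.112, edgeR). Krt7, a keratin, had 337, 702, 522 and 650.5 CPM in the shC tumours, against 1557, 1507 and 757 CPM in the shC cells (-1.20 ± 0.31 SE, adjusted p = 0.0136, edgeR). Cdh1, E-cadherin, had 39.0, 59.7, 80.0 and 202 CPM in the shC tumours, against 286, 327 and 262 CPM in the shC cells (-1.63 ± 0.46 SE, adjusted p = 0.0215, edgeR). Krt7 was not called without shC cells 1 or 2 (adjusted p = 0.0506 and 0.056, edgeR), nor Cdh1 without shC cells 2, shC tumour 2 or shC tumour 3 (0.0555 to 0.0644). Thus 2 of 17 tested members were higher and 3 lower (median 0.24). Itgb4, a hemidesmosome integrin, changed by 1.44 ± 0.20 (SE) and Lamb3, a laminin chain, by -1.92 ± 0.39 (SE). Vim, the mesenchymal filament gene, had 4386, 2769.8, 3893 and 1995 CPM in the shC tumours, against 9908, 9012 and 3133 CPM in the shC cells (-1.17 ± 0.38 SE, adjusted p = 0.0368, edgeR) and lost its call without shC cells 1 or 2 or shC tumours 2, 3 or 4 (adjusted p = 0.0545 to 0.129). Snai1 changed by 0.70 ± 0.23 (SE) and lost its call without shC cells 2 or 3 or shC tumours 1, 2 or 3 (adjusted p = 0.0681 to 0.118, edgeR). Lgals1, galectin-1, had the largest fall in mean CPM, with 3232, 8709.8, 7899 and 5073 CPM in the shC tumours, against 16741, 16902 and 13415 CPM in the shC cells (-1.33 ± 0.30 SE, adjusted p = 0.0072, edgeR).

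Hippo signalling restrains YAP and TAZ, which with TEAD factors drive targets such as Ccn1, Ccn2 and Ankrd1. Wwtr1 had 60.6, 29.2, 42.5 and 27.4 CPM in the shC tumours, against 41.9, 30.7 and 27.0 CPM in the shC cells (0.28 ± 0.32 SE, adjusted p = 0.539, edgeR). Yap1 had 103, 143, 105 and 157 CPM in the shC tumours, against 166, 156 and 143 CPM in the shC cells (-0.29 ± 0.21 SE, adjusted p = 0.334, edgeR). Ccn2 had 117, 37.9, 57.0 and 61.9 CPM in the shC tumours, against 87.3, 151 and 64.4 CPM in the shC cells (-0.54 ± 0.39 SE, adjusted p = 0.314, edgeR); the groups overlap in all of them. Ankrd1 had 80.2, 133, 259 and 182 CPM in the shC tumours, against 613, 641 and 628 CPM in the shC cells (-1.95 ± 0.33 SE, adjusted p = 0.00168, edgeR). Axl, a receptor tyrosine kinase, had 405, 441, 492 and 375 CPM in the shC tumours, against 1391, 1134 and 1470.2 CPM in the shC cells (-1.64 ± 0.18 SE, adjusted p = 1.19e-04, edgeR). Ccn1 changed by -1.34 ± 0.30 (SE), and of those that rose Vgll4, a TEAD cofactor, changed by 2.76 ± 0.48 (SE). Of 22 tested members 9 were lower and 3 higher (median -0.45).

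**Figure D4:**
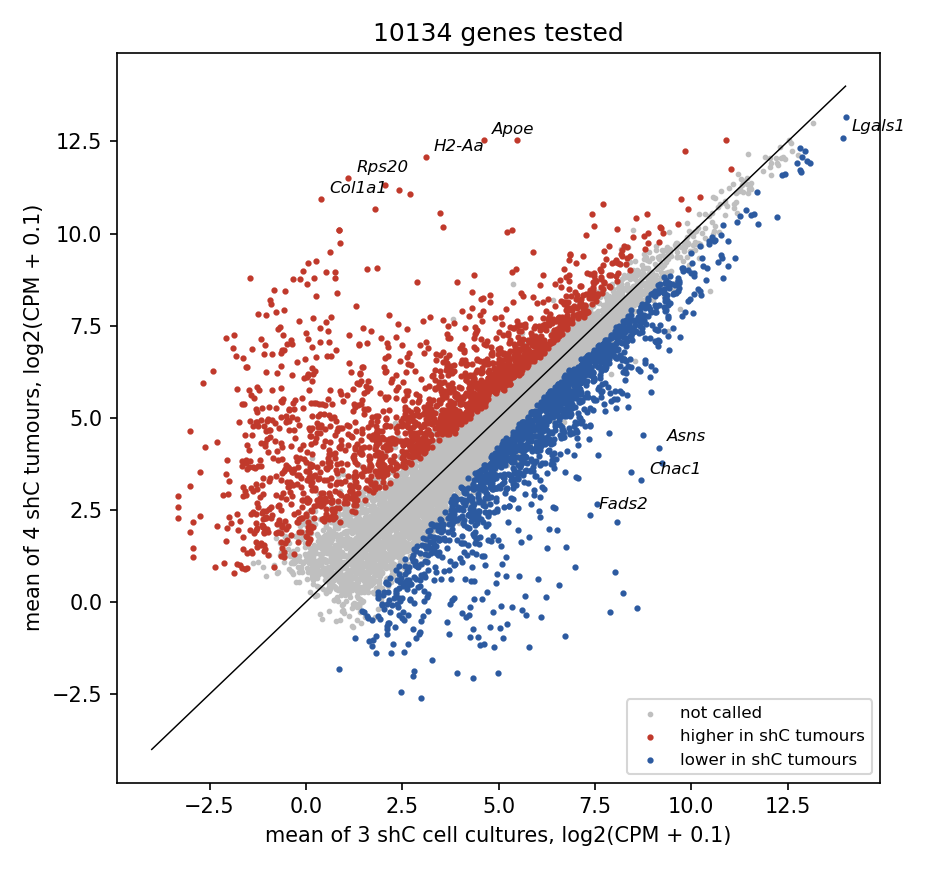
Mean log2(CPM + 0.1) of 4 shC tumours (vertical) against 3 shC cell cultures (horizontal) for 10134 tested genes, coloured by direction where the adjusted p was under 0.05 (edgeR), with the line of equal levels. Host genes such as Apoe and Col1a1 lie far above the line, and Asns, Chac1 and Fads2 far below; Rps20, a ribosomal protein gene, lies above as well.

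Some genes that most cells use were near 0 in one table. Rps20 had 2867, 2875, 2439 and 3504 CPM in the shC tumours, against 4.59, 0.770 and 0.716 CPM in the shC cells, whereas 72 of 74 ribosomal protein genes lay within a log2 fold change of 2. Under 2 CPM in every shC tumour and at least 20 in every shC culture were 18 called genes. Of these, 16 were also under 2 CPM in every shTAZ tumour. The opposite pattern was seen for 95 genes, 58 of them also under 2 CPM in every shTAZ culture. Those 95 take in host genes named above, such as Laptm5, Cd52, Col1a1 and Col3a1, so they are not a count of genes that most cells use. Ubb, a ubiquitin gene, had 31.6, 7.29, 5.96 and 9.36 CPM in the shC tumours, against 739.8, 640.5 and 442 CPM in the shC cells, and Hnrnpul1, an RNA-binding protein, had 2.03, 3.82, 10.2 and 8.64 CPM in the shC tumours, against 195, 222 and 142 CPM in the shC cells. For such genes the growth condition and the annotation behind each table cannot be told apart.

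The same contrast in the 7 shTAZ libraries, added after seeing the data, called 1467 genes higher and 1374 lower of 8807 tested (32.3%). Of 1635 genes higher in shC and tested there, 1625 had the same sign and 1245 were called; of 1391 lower, all had the same sign and 1008 were called. Both contrasts use the same pair of tables, so an annotation difference recurs in each. A fit to all 14 libraries tested whether the difference between tumours and cells depends on the hairpin: none of 9588 genes was called by edgeR, 235 had an unadjusted p under 0.05, and DESeq2 called none, with 266. A gene not called there is not shown to change alike in both lines.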

How the data were processed

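The members and gene lists were chosen with earlier results of these data known. Bulk MARS-seq libraries were made from total RNA; the authors trimmed reads with cutadapt, mapped them to GRCm38 with STAR and counted them with HTSeq in the UTAP pipeline, per the labels and methods, and deposited raw counts per gene for tumours and for cultures in separate tables. The authors' own DESeq2 comparisons (fold changes, p-values) were not used, nor were 34 deposited per-sample columns other than raw counts, such as normalized values. For the cultures the paper reports batch correction with the sva package, whereas raw counts were fitted here without a batch term. Whether molecular identifiers were collapsed is not given in the sources used here. Genes were joined by symbol, older symbols mapped through RefSeq synonyms. Genes passing edgeR's expression filter were fitted with edgeR 4.0.16 (limma 3.58.1, R 4.3.3; TMM, glmQLFit, glmQLFTest, Benjamini-Hochberg, threshold 0.05), shC tumours over shC cells, without covariates. The fit was tested on simulated data. DESeq2 1.42.0 was an alternative. Genes were named by rule: the 10 largest folds in each direction with at least 10 counts in every library, the 10 largest CPM differences, the highest called members of each list, and Wwtr1, Yap1 and Ccn2; Hmmr, Prc1, Igtp and Gbp2 were chosen after their values were seen. Totals per library lay between 2282612 and 22364483, and the precision of low genes is set by the smallest.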

Additional observations from a re-analysis of the deposited data

Results flagged for a closer look

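A sample is singled out here when it stood far from the other 3 shC tumours by Dixon's test at 95%, which chance gives for about 1 in 20 groups; of 122 groups tested, 19 had such a sample, 8 of them with shC tumour 2 apart and 7 with shC tumour 1. shC tumour 1 had 22364483 counts, far more than the others. Over all genes listed for tumours, shC tumour 2 held 0.742% of its counts in pericyte and smooth muscle genes, 0.0582% in adipocyte genes and 0.0642% in urothelial genes. It was also apart in Tagln (3127 CPM), Des (1745 CPM), Cnn1 (1317 CPM), Myh11 (958 CPM) and Chac1 (19.4 CPM). shC tumour 1 was low in Cfb (98.2 CPM), H2-K1 (949 CPM) and Psat1 (4.87 CPM), and high in Ddit4 (528.5 CPM), Zfp36 (85.0 CPM) and Ubb (31.6 CPM). shC tumour 3 was high in Flt1 (12.8 CPM) and Ccna2 (8.51 CPM), and shC tumour 4 in Epcam (360.5 CPM) and Cldn4 (1047 CPM).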

How the results depend on the processing

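The main comparison called 1776 genes higher and 1501 lower. A test against a log2 fold change of 1 (glmTreat) called 787 and 374, tumours coded FG alone 1066 and 589, tumours coded FM alone 1173 and 900, and scaling to the simple epithelial genes 664 lower. With the replicate number as a block it called 1161 and 761; same-numbered samples did not deviate together (correlations -0.10, 0.04 and -0.01), so they share only a number. Leaving out single libraries gave 1290 to 1677 higher and 1087 to 1560 lower. RLE and library size scaling, no filter on low counts, a minimum of 10 counts, DESeq2, all 14 libraries, identical symbols, thinning and the shTAZ libraries stayed within 1.5 times. In the difference between lines, 0 genes were called under every alternative run, which does not show that the lines were alike. Of 100 genes named here, the direction reversed once: Wwtr1 ranged between -4.56e-05 and 0.47 when single libraries were left out, with the lowest value without shC tumour 1. Restricted to genes listed in both tables, mean shares in tumours were 0.0140% for neutrophil, 0.00122% for T cell, 0.00508% for NK, 5.58e-05 percent for B cell, and 0.0% for mast cell, lymphatic, erythroid and adipocyte genes; the urothelial mean was 0.00934%. The smallest tumour library, 2282612 counts, limits what low genes can show.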
